A study of Mus musculus with 12 samples.

Results

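The genes examined here were 10 genes of calcium handling at the sarcoplasmic reticulum of mouse skeletal muscle: Atp2a1, Atp2a2, Sln, Pln, Casq1, Casq2, Ryr1, Cacna1s, Pvalb and Stim1. All probe sets that the array annotation gives to only 1 of these symbols were taken, which gave 20 of the 45101 probe sets on the array and 10 of 18193 genes, and 19 of them passed the filter on dim probe sets. The 20th, the second Sln probe set 1420883_at, lay between 2.54 and 2.64 on the log2 scale on all 12 arrays and was not tested. Expression was measured on one-colour Affymetrix arrays in 4 groups of 3 arrays: wild-type (WT) soleus, knockout (KO) soleus, WT tibialis anterior (TA) and KO TA. The knockout is of H6pd, which encodes hexose-6-phosphate dehydrogenase, an enzyme inside the endoplasmic reticulum that supplies NADPH there. All mice were 4 weeks old and weaned, and the design text reports no overt myopathy on histology. Per the design text, soleus and TA were set side by side for their unlike fibre types and metabolism. The labels call the 3 arrays of a group biological replicates but give no strain, no description of the deleted part of H6pd and no link between muscles and mice. Each p-value sets a difference against the spread between arrays within groups, estimated over all 4 groups together.

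A muscle fibre contracts when a voltage change in its surface membrane opens the calcium store of the sarcoplasmic reticulum, and it relaxes when pumps return the calcium to that store. The voltage is sensed by Cacna1s, the pore-forming subunit of the skeletal dihydropyridine receptor, which acts on Ryr1, the calcium release channel of the reticulum. Inside the store calcium is held by the calsequestrins Casq1 (mainly of fast fibres) and Casq2 (of slow fibres and heart), and it is pumped back by SERCA1 (Atp2a1, the fast-fibre pump) or SERCA2 (Atp2a2, the slow-fibre and cardiac pump). Sarcolipin (Sln) and phospholamban (Pln) are small membrane proteins that inhibit the pumps, parvalbumin (Pvalb) buffers calcium in the cytosol of fast fibres, and Stim1 senses an empty store and opens calcium entry from outside.

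Promoter sequences are shown for 5 of the 10 genes: Atp2a1, Casq1 and Pvalb, whose mean signals were lower in soleus than in TA, Casq2, whose mean signal was higher there, and Pln, whose mean signal was higher in KO than in WT in both muscles. Each is the 250 bases before the transcription start in RefSeq (build GRCm38.p6), written 5′ to 3′ on the gene's strand, and the capitals mark E-boxes, the CANNTG letters that muscle basic helix-loop-helix factors recognise. RefSeq's table held 8 of the 10 genes, with 2 starts for Pvalb, of which the upstream one is shown. It lacked Atp2a2 and Sln, so no sequence is given for these.
Atp2a1, chr7:126463074-126463323, minus strand: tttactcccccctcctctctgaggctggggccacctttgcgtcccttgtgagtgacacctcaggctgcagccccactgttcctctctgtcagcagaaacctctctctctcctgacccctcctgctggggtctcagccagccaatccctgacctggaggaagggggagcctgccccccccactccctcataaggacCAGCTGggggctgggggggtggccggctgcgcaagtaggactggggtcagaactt
Casq1, chr1:172219896-172220145, minus strand: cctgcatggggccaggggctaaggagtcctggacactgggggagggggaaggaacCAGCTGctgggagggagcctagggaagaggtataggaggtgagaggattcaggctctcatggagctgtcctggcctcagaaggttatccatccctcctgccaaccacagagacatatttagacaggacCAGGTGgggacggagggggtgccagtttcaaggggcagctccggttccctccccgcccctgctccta
Pvalb, chr15:78206401-78206650, minus strand: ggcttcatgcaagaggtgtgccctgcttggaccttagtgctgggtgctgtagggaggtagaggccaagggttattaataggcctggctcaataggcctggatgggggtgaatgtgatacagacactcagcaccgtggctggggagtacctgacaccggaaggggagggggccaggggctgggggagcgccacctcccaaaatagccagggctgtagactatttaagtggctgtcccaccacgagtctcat
Casq2, chr3:102086165-102086414, plus strand: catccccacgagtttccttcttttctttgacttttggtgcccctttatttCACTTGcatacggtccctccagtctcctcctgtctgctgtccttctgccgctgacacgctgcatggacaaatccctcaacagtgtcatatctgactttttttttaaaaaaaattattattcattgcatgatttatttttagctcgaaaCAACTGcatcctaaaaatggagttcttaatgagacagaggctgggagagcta
Pln, chr10:53337436-53337685, plus strand: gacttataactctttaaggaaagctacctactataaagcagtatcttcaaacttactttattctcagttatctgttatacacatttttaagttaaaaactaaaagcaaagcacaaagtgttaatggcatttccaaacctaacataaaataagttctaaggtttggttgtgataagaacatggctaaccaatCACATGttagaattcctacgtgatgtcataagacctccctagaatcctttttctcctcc
The Atp2a1 sequence held 1 E-box at positions -55 to -50 from the start, and the Casq1 sequence held 2, at -195 to -190 and -67 to -62. The Casq2 sequence also held 2, at -200 to -195 and -52 to -47, the Pln sequence held 1 at -59 to -54, and the upstream Pvalb sequence held 0. At least 1 E-box is found in 66.2% of the 32851 promoters of this length, so its presence does not set these genes apart. The MEF2 core (the palindrome CTA, any 4 bases, TAG) is found in 3.2% of them and in 0 of the 9 sequences of the 8 genes. The letters TATAAA, found on either strand in 12.4%, occurred in the Pln sequence alone of these 9 (-219 to -214), and CATTCC, found in 12.6%, in the Cacna1s sequence alone (-130 to -125). These matches overlapped no E-box.

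Several properties of the whole array set bear on these genes. H6pd itself, read by a probe set whose place relative to the deletion is not given, was at log2 4.90 ± 1.04 in KO against 6.27 ± 0.78 in WT soleus (SD, n = 3; limma adjusted p = 0.654) and at 6.96 ± 0.50 against 6.85 ± 0.93 in TA (adjusted p = 0.972), so its signal gives no check of the labels. The first principal component separated the muscles (41.2% of the variance), and along the second (23.8%) the arrays numbered 3 of all 4 groups lay from -55.1 to -39.0 while the others lay from 11.1 to 32.3. The 6 skeletal muscle markers summed to log2 18.00 to 18.20 on every array. Of the 4 cardiac markers, Nppa and Myl7 were near log2 2.4 in all groups, below the background mark of 3.55. Myh6 had means of 8.72 in KO and 8.42 in WT soleus, against 4.42 in KO and 3.86 in WT TA. Myl4 had means of 8.49 in KO and 8.65 in WT soleus, against 6.75 in KO and 6.82 in WT TA. The background mark is the 95th percentile of 44 olfactory receptor probe sets and was chosen after values had been seen. In bulk muscle, fewer cells of a type and less RNA per cell cannot be told apart.

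**Figure D1:**
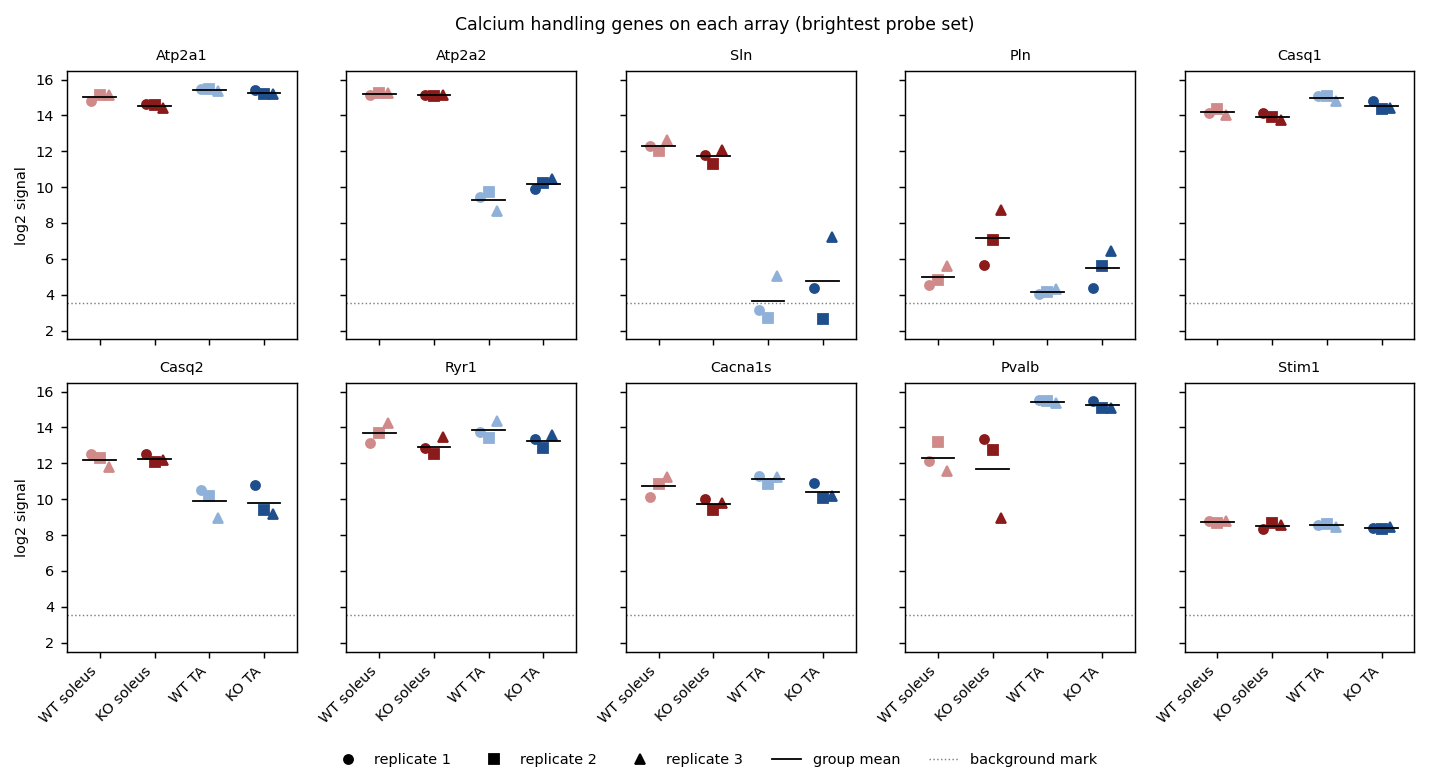
Log2 signal (vertical axis, quantile normalized) of the brightest probe set of each of the 10 genes on the 12 arrays; points are arrays, with the shape giving the replicate number, black lines are group means and the dotted line is the background mark of 3.55. Atp2a2, Sln and Casq2 were high in both soleus groups, Pvalb was high in both TA groups, and Pln had its highest mean in KO soleus.

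Soleus and TA differed in their calcium handling transcripts in both genotypes. The slow-fibre pump Atp2a2, its inhibitor Sln and the slow calsequestrin Casq2 were higher in soleus, by 59.9-fold for Atp2a2 and 4.9-fold for Casq2 in WT mice. The fast-fibre pump Atp2a1 and the fast calsequestrin Casq1 were lower in soleus, by 1.34-fold and 1.75-fold. The release channel Ryr1, its voltage sensor Cacna1s and the entry sensor Stim1 did not pass the test between muscles in either genotype. In WT mice 9 of the 19 tested probe sets passed the limma test (adjusted p under 0.05 over all 22648 probe sets), 7 higher and 2 lower in soleus, where 7.7% of all probe sets were called, 3.3% higher and 4.4% lower. In KO mice 10 of 19 passed, 8 higher and 2 lower, where 6.6% of all were called, 3.11% higher and 3.49% lower. With median centring in place of quantile normalization the calls over all probe sets were 1227 higher and 570 lower in place of 748 and 997 in WT, and 812 and 539 in place of 704 and 790 in KO. The table as deposited, without normalization, gave 851 higher and 577 lower in KO. For the 19 probe sets median centring gave 8 higher and 1 lower in WT. The median log2 difference of the 19 was 0.82 in WT and 1.63 in KO, against -0.02 over all probe sets, and 6 of the 19 were of Atp2a2 alone. With each of the 10 genes counted once, on its brightest probe set, the median was 0.02 in WT and -0.11 in KO. Without the arrays numbered 3, 9 of 19 passed in each genotype, but not all the same probe sets. In WT Atp2a1 no longer passed there, while Pvalb, which had not passed in the main fit, did.

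**Figure D2:**
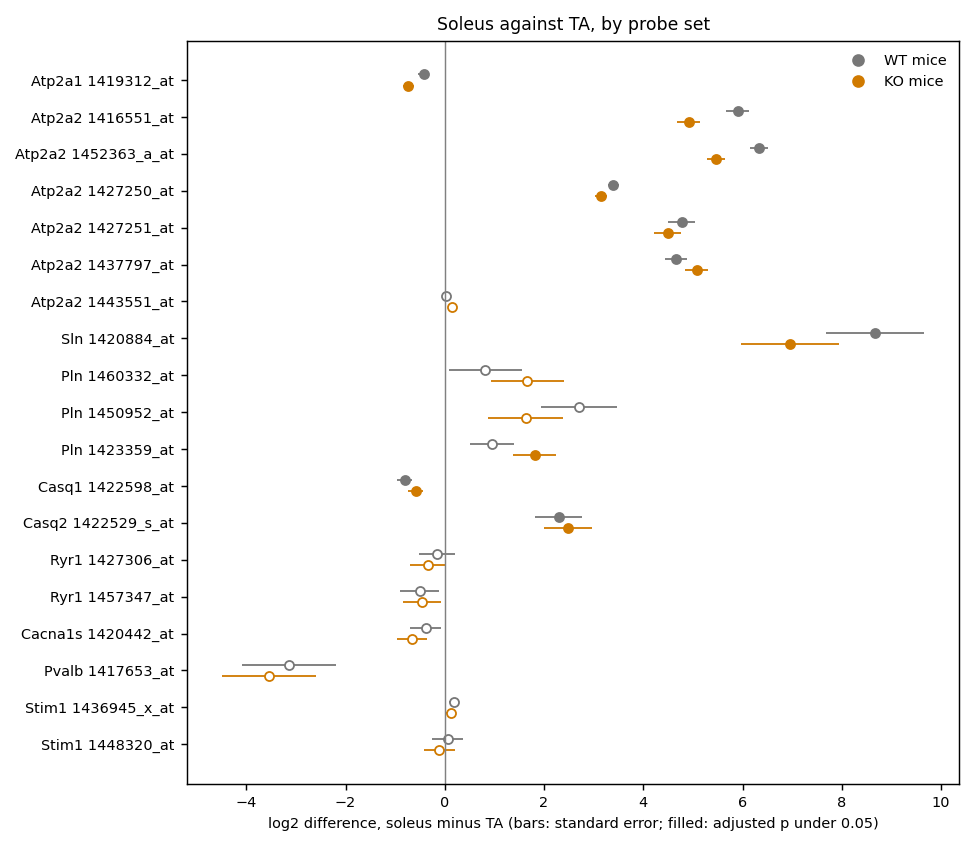
Log2 difference, soleus minus TA (horizontal axis), for the 19 tested probe sets, in WT mice (grey) and KO mice (orange); bars are standard errors of the limma fit and filled points passed at an adjusted p under 0.05. All but 1 of the 6 Atp2a2 probe sets and Sln lie far to the right in both genotypes, and Atp2a1 and Casq1 lie left of 0.

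Atp2a2 on its brightest probe set read log2 15.12, 15.23 and 15.24 on the WT soleus arrays and 9.45, 9.74 and 8.69 on the WT TA arrays. In KO mice it read 15.13, 15.06 and 15.16 in soleus and 9.92, 10.21 and 10.46 in TA. Every soleus array was thus more than 4 log2 units above every TA array, and the soleus arrays of both genotypes overlapped. The log2 difference between muscles was 5.90 (SE 0.23, adjusted p = 7.72e-07) in WT and 4.92 (SE 0.23, adjusted p = 3.98e-06) in KO. Of the other 5 Atp2a2 probe sets, 4 passed in both genotypes. Probe sets 1452363_a_at, 1427250_at and 1427251_at gave log2 differences of 6.33, 3.40 and 4.78 in WT and 5.46, 3.16 and 4.49 in KO. Probe set 1437797_at was under the background mark on all 6 TA arrays and was at least 17-fold higher in soleus in WT (adjusted p = 3.71e-06) and at least 21-fold in KO (adjusted p = 3.36e-06). These are bounds, taken against the mark and not against the dim signal. The sixth, 1443551_at, lay between 3.21 and 3.63, above the mark on 1 of 12 arrays, and did not pass.

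Atp2a1, the pump of fast fibres, lay near the top of the scale in both muscles. It read log2 14.79, 15.13 and 15.13 in WT soleus and 15.48, 15.47 and 15.39 in WT TA. It read 14.65, 14.56 and 14.42 in KO soleus and 15.40, 15.22 and 15.22 in KO TA. No soleus array reached the lowest TA array. The log2 difference was -0.43 (SE 0.11, adjusted p = 0.0385) in WT and -0.73 (SE 0.11, adjusted p = 0.00365) in KO. The WT call was lost in 11 of 23 alternatives: without any 1 of 8 arrays (KO soleus 2, WT soleus 1, WT soleus 2, KO TA 2, KO TA 3 and the 3 WT TA arrays), without the arrays numbered 3 (-0.53, adjusted p = 0.0647), with median centring (-0.42, adjusted p = 0.0507) and with only the 2 groups compared (adjusted p = 0.124). Its lowest adjusted p was 0.0186. The KO call was kept in all 23.

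Sln, the inhibitor of the SERCA pumps, had the largest difference between muscles of the 10 genes on brightest probe sets. It read log2 12.29, 12.03 and 12.61 in WT soleus and 11.82, 11.27 and 12.06 in KO soleus. In TA it read 3.17, 2.68 and 5.06 in WT and 4.38, 2.67 and 7.21 in KO, so that 1 of 3 WT TA arrays and 2 of 3 KO TA arrays were above the background mark. Soleus was high on every array, while TA ranged from background to a clear signal on the arrays numbered 3. The log2 difference was 8.67 (SE 0.99, adjusted p = 0.000893) in WT and 6.96 (SE 0.99, adjusted p = 0.00337) in KO, with 3 of the 6 TA arrays under the background mark.

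Pln, the other pump inhibitor, was dimmer than 9 on the log2 scale on every array. On its brightest probe set it read log2 4.56, 4.79 and 5.61 in WT soleus and 5.64, 7.03 and 8.75 in KO soleus. It read 4.06, 4.15 and 4.30 in WT TA and 4.37, 5.59 and 6.46 in KO TA. In each of the 4 groups the array numbered 3 was the highest. The muscles differed on this probe set by 0.82 in WT (adjusted p = 0.525) and 1.67 in KO (adjusted p = 0.229). Probe set 1423359_at passed in KO (1.81, SE 0.44, adjusted p = 0.0379), a call lost in 14 of 21 alternatives, which included the removal of any 1 array other than KO soleus 1 and WT soleus 3. Probe set 1450952_at, under the mark on all WT TA arrays, was at least 3.86-fold higher in WT soleus (adjusted p = 0.0605, and 0.0202 with the replicate number as a block, over 22 alternatives 0.0202 to 0.203). It also passed without KO soleus 1 (2.69, adjusted p = 0.0421) or without KO TA 3 (2.71, adjusted p = 0.0343). Probe set 1423359_at, also under the mark on all WT TA arrays, was at least 1.31-fold higher in WT soleus (adjusted p = 0.214), with adjusted p = 0.0298 without KO soleus 1 and a range of 0.0298 to 0.477.

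The calsequestrins, whose promoter windows held 2 E-boxes each, differed in opposite directions. Casq1 read log2 14.14, 14.37 and 14.03 in WT soleus and 15.09, 15.08 and 14.79 in WT TA. It read 14.12, 13.94 and 13.75 in KO soleus and 14.78, 14.38 and 14.41 in KO TA. The muscles did not overlap within either genotype. The log2 difference was -0.81 (SE 0.15, adjusted p = 0.0106) in WT, kept in all 23 alternatives, and -0.58 (SE 0.15, adjusted p = 0.0469) in KO, lost in 17 of 23 and without any 1 array except WT TA 3, with adjusted p from 0.0124 to 0.135. Casq2 read 12.53, 12.28 and 11.77 in WT soleus and 10.53, 10.19 and 8.97 in WT TA. In KO mice it read 12.53, 12.06 and 12.19 in soleus and 10.77, 9.40 and 9.15 in TA. Casq2 was higher on every soleus array than on any TA array, and it spread over more than 1 log2 unit within TA. Its log2 difference was 2.29 (SE 0.48, adjusted p = 0.0187) in WT and 2.48 (SE 0.48, adjusted p = 0.0144) in KO. Each call was lost in 3 of 23 alternatives. The WT losses included those without WT soleus 1 (adjusted p = 0.0751) or WT soleus 2 (0.0646). The KO call was lost without KO soleus 1 (0.0611) or KO TA 2 (0.0612) and with only the 2 groups compared. The adjusted p ran from 0.00269 to 0.0751 in WT and from 0.00213 to 0.0612 in KO.

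Pvalb, the cytosolic buffer of fast fibres, read log2 15.51, 15.45 and 15.35 in WT TA and 15.50, 15.10 and 15.08 in KO TA. In soleus it read 12.14, 13.21 and 11.55 in WT and 13.38, 12.73 and 8.94 in KO. All TA arrays were above all soleus arrays, and the soleus arrays were scattered, with KO soleus 3 lowest by more than 2 log2 units. The log2 difference was -3.14 (SE 0.94, adjusted p = 0.0751) in WT and -3.55 (SE 0.94, adjusted p = 0.0553) in KO. With the replicate number as a block both passed, at adjusted p = 0.0393 and 0.0271. Without the single array KO soleus 3 both passed too, at -3.15 (adjusted p = 0.00171) in WT and -2.18 (adjusted p = 0.0188) in KO, and without KO soleus 1 the KO difference was -4.40 (adjusted p = 0.0386). Over 23 alternatives the adjusted p ran from 0.00171 to 0.195 in WT and from 0.0188 to 0.192 in KO. Pvalb passed in 6 of the 23 in each genotype, which included a filter on a mean above 5 in both. In WT it also passed with array weights, with only the 2 groups compared and without the arrays numbered 3.

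For the coupling pair and the entry sensor the group means of the muscles lay within 1 log2 unit of each other. Ryr1 on its brightest probe set read log2 13.12, 13.66 and 14.24 in WT soleus and 13.73, 13.41 and 14.35 in WT TA. It read 12.83, 12.51 and 13.45 in KO soleus and 13.36, 12.86 and 13.59 in KO TA. The soleus and TA values overlapped in both genotypes, with log2 differences of -0.15 (SE 0.36, adjusted p = 0.828) in WT and -0.34 (SE 0.36, adjusted p = 0.662) in KO. The second Ryr1 probe set gave -0.51 and -0.46 (SE 0.39 each). Cacna1s, the voltage sensor, read 10.13, 10.83 and 11.24 in WT soleus and 11.31, 10.82 and 11.22 in WT TA. Its readings were 9.98, 9.41 and 9.76 in KO soleus and 10.90, 10.06 and 10.18 in KO TA. The KO muscles did not overlap and the WT muscles did, and the log2 differences were -0.39 (SE 0.31, adjusted p = 0.471) in WT and -0.66 (SE 0.31, adjusted p = 0.261) in KO. Stim1 on its brightest probe set, 1436945_x_at, lay between 8.36 and 8.78 on all 12 arrays, with a log2 difference of 0.19 (SE 0.11, adjusted p = 0.309) in WT and 0.12 (adjusted p = 0.595) in KO. Its second probe set gave 0.06 and -0.11 (SE 0.32 each). With median centring the WT difference was 0.40 and passed (adjusted p = 0.0453), over a range of 0.0453 to 0.629 in 23 alternatives.

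The knockout was then compared with WT within each muscle. On brightest probe sets Pln had the largest difference of the 10 genes in both, with a mean higher in KO by 2.15 log2 units in soleus and 1.30 in TA. Its other probe sets also had higher means in KO, by 2.001 and 2.09 in soleus, and in TA by at least 5-fold and at least 1.59-fold, since every WT TA array lay under the background mark. Cacna1s and both Ryr1 probe sets had lower means in KO in both muscles, and Atp2a2 had a higher mean in KO TA on 4 of 6 probe sets. None of the 19 probe sets passed the limma test in either muscle, so these differences are given as values. In soleus 0 of 19 passed and 6 of 19 had an unadjusted p under 0.05, where 0.0221% of all probe sets (5 of 22648) passed and 1757 had such an unadjusted p. In TA 0 of 19 passed and 8 of 19 had an unadjusted p under 0.05, where 2.02% of all (458) passed and 3455 had such an unadjusted p. KO and WT values did not overlap for 5 of 19 in soleus, where 11.2% of all did not, and for 8 of 19 in TA, where 21.7% did not. With each of the 10 genes counted once, on its brightest probe set, 3 did not overlap in soleus and 3 in TA. These counts over 19, and those of unadjusted p, take probe sets of 1 gene separately, several of Pln in soleus and of Pln and Atp2a2 in TA. The median log2 difference over the 19 probe sets was -0.20 in soleus and -0.04 in TA, against 0.00 over all probe sets in both. Over the 10 genes on brightest probe sets it was -0.36 and -0.16. Without the arrays numbered 3, 0 of 19 passed in either muscle. The normalization moved the split of all calls in TA, from 221 higher and 237 lower to 382 and 151 with median centring, and 1231 probe sets in place of 458 passed with the replicate number as a block.

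**Figure D3:**
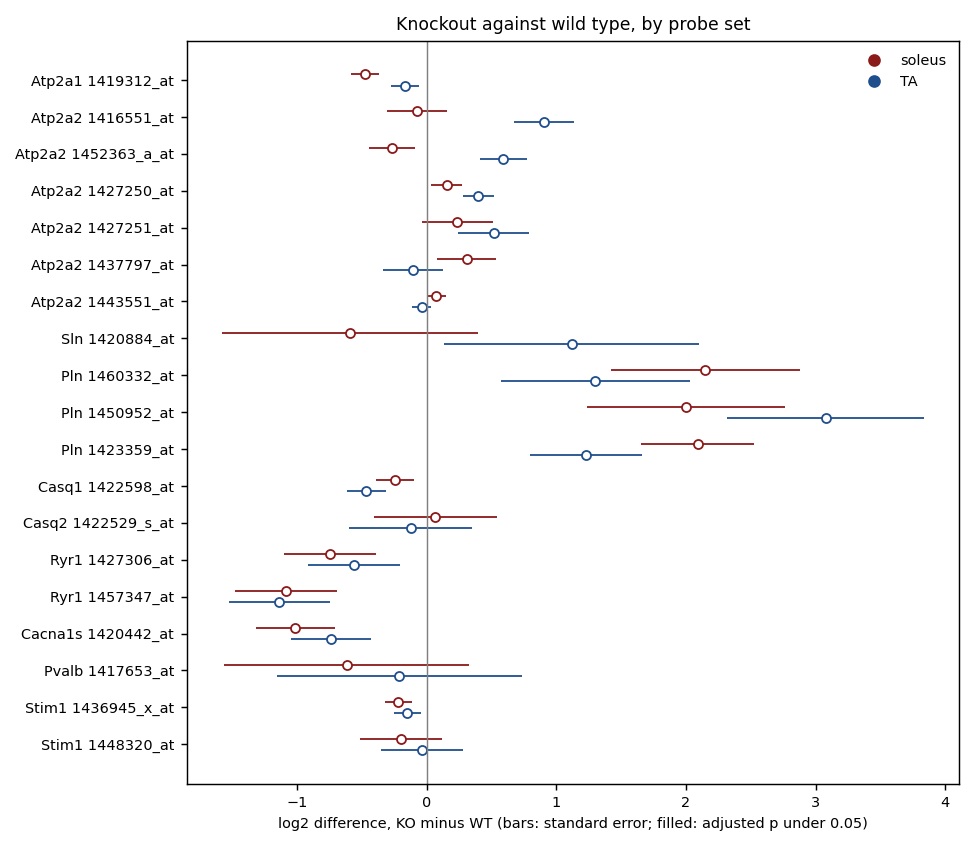
Log2 difference, KO minus WT (horizontal axis), for the 19 tested probe sets in soleus (red) and TA (blue); bars are standard errors of the limma fit, and open points did not pass at an adjusted p under 0.05, which no probe set did. The 3 Pln probe sets lie between 1.23 and 3.08, with 2 of them under the background mark on every WT TA array, and Cacna1s and both Ryr1 probe sets lie left of 0 in both muscles.

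Of the pumps, Atp2a1 had a lower mean in KO in both muscles and Atp2a2 a higher mean in KO TA, none past the test. For Atp2a1 all 3 KO soleus arrays were below all 3 WT soleus arrays, with a log2 difference of -0.48 (SE 0.11, adjusted p = 0.238). This passed only with array weights (-0.51, adjusted p = 0.0370) of 23 alternatives, the others reaching up to 0.694. In TA the Atp2a1 difference was -0.17 (SE 0.11, adjusted p = 0.514). Atp2a2 on its brightest probe set did not differ by more than its error in soleus (-0.08, SE 0.23, adjusted p = 0.9997). In TA all 3 KO arrays were above all 3 WT arrays, with a log2 difference of 0.91 (SE 0.23, adjusted p = 0.0826). Probe sets 1452363_a_at and 1427250_at of Atp2a2 were also without overlap in TA, at 0.59 (adjusted p = 0.134) and 0.40 (adjusted p = 0.135). The brightest probe set passed with median centring (1.01, adjusted p = 0.0370) and with a filter on a mean above 5 (adjusted p = 0.0485), over a range of 0.0370 to 0.287. Its difference was 0.61 without WT TA 3, the lowest WT array, and 0.48 (adjusted p = 0.215) without the arrays numbered 3. For 1427250_at the difference was 0.40 with adjusted p = 0.0367 without KO soleus 3, over a range of 0.0367 to 0.311.

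Slow-fibre markers had the same direction as Atp2a2 in TA. The mean of all 8 slow-fibre markers measured was higher in KO TA than in WT TA, with 0 of 8 past the test, and their summed level was log2 12.42 to 13.20 in KO and 11.60 to 12.47 in WT, with WT TA 3 lowest. Of 9 fast-fibre markers 2 had a higher mean in KO TA, and their sum was 18.81 to 18.91 in KO and 18.97 to 19.01 in WT. In soleus 3 of 8 slow-fibre markers had a higher mean in KO, with sums of 18.19 to 18.48 in KO and 18.21 to 18.41 in WT. The part of fibre type in the Atp2a2 values was not tested.

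Among the inhibitors, Sln had log2 differences of -0.59 (SE 0.99, adjusted p = 0.9997) in soleus and 1.12 (SE 0.99, adjusted p = 0.668) in TA, and KO and WT arrays overlapped in both. The TA value turned to -0.11 without KO TA 3, the only array of that muscle above 7. Pln on its brightest probe set differed by 2.15 (SE 0.73, adjusted p = 0.461) in soleus and 1.30 (SE 0.73, adjusted p = 0.455) in TA, without overlap in either muscle. KO soleus 1, at 5.64, was only just above WT soleus 3, at 5.61. Without the arrays numbered 3, which were highest in each group, the Pln differences were 1.63 (adjusted p = 0.643) and 0.87 (adjusted p = 0.548).

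The other Pln probe sets gave the same order of group means. Probe set 1450952_at read log2 6.06, 7.93 and 8.50 in KO soleus and 5.49, 4.78 and 6.22 in WT soleus. It read 4.73, 5.47 and 7.41 in KO TA and 2.52, 3.18 and 2.67 in WT TA. Every WT TA array was under the background mark and every KO TA array above it, while the soleus groups overlapped. In TA the log2 difference was 3.08 (SE 0.76, adjusted p = 0.0760), or at least 5-fold against the mark, and it passed with the replicate number as a block (adjusted p = 0.0269) and with the filter on a mean above 5 (adjusted p = 0.0397), over a range of 0.0269 to 0.208. In soleus it was 2.001 (SE 0.76, adjusted p = 0.524). Probe set 1423359_at read 4.82, 6.56 and 6.72 in KO soleus and 4.07, 3.61 and 4.15 in WT soleus. In KO TA it read 3.79, 4.30 and 4.56 and in WT TA 3.11, 2.92 and 2.93. Neither muscle's groups overlapped, with log2 differences of 2.09 (SE 0.44, adjusted p = 0.204) in soleus and 1.23 (SE 0.44, adjusted p = 0.202; at least 1.59-fold) in TA. Without KO soleus 1, the lowest KO soleus array, both passed, at 2.69 (adjusted p = 0.00790) in soleus and 1.22 (adjusted p = 0.0306) in TA, the extremes over alternatives being 0.694 and 0.478. The 3 probe sets read 1 gene and are not separate evidence.

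Pln and Atp2a2 are also expressed in heart and smooth muscle. Of the 4 cardiac markers, Nppa and Myl7 were below the background mark in all groups, while the group means of Myh6 and Myl4 were above it. Nppa and Myl7 did not pass the filter and were not tested. Myh6 had a higher mean in KO, by 0.31 in soleus and 0.56 in TA (limma adjusted p = 0.838 and 0.199). Myl4 had a lower mean in KO, by -0.16 and -0.07 (limma adjusted p = 0.9997 and 0.991). The summed level of the 4 markers was log2 9.29 to 9.86 in KO and 9.33 to 9.98 in WT soleus, and 5.59 to 9.25 in KO and 6.27 to 7.88 in WT TA. All 6 smooth muscle markers had lower means in KO in both muscles, with summed levels of log2 12.19 to 12.45 in KO and 12.32 to 12.56 in WT soleus, and 11.89 to 12.48 in KO and 12.01 to 12.80 in WT TA. Of these 1, Lmod1, passed the test, in TA, where its means of log2 2.40 in KO and 3.27 in WT both lay under the background mark. The part of smooth muscle cells in the Pln and Atp2a2 values was not tested.

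**Figure D4:**
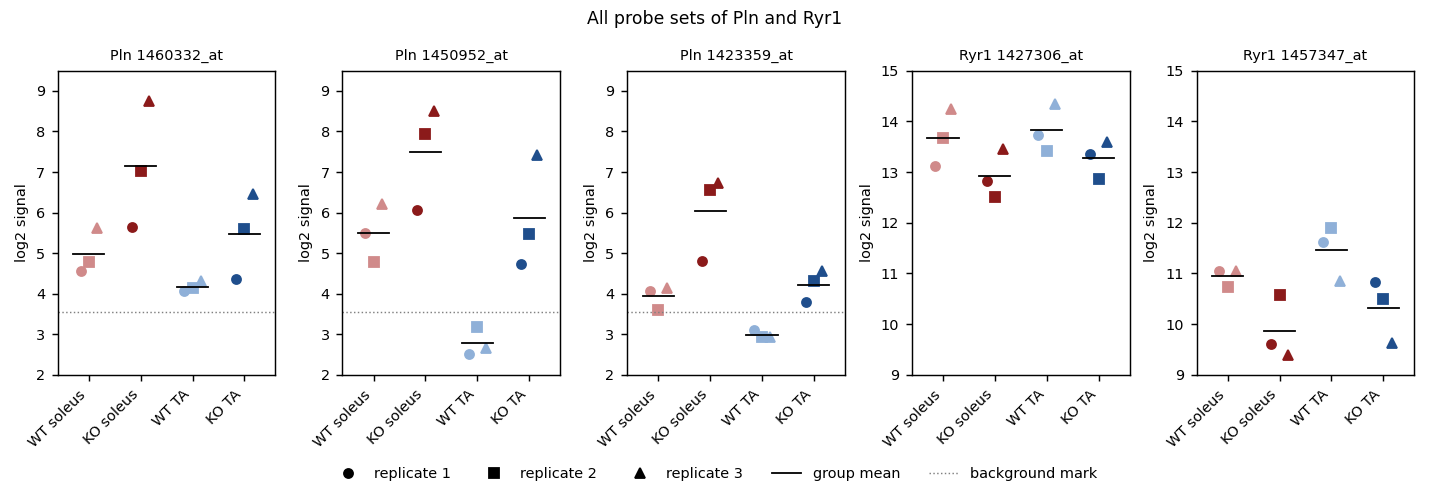
Log2 signal (vertical axis) of the 3 Pln and the 2 Ryr1 probe sets on the 12 arrays; points are arrays, shapes give the replicate number, black lines are group means and the dotted line is the background mark. KO means are above WT means for each Pln probe set and below them for each Ryr1 probe set in both muscles, and the arrays numbered 3 are high on Ryr1 1427306_at but lowest in 3 of the 4 groups on Ryr1 1457347_at.

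Neither calsequestrin transcript passed the test between KO and WT in either muscle. Casq1 had log2 differences of -0.24 (SE 0.15, adjusted p = 0.826) in soleus and -0.46 (SE 0.15, adjusted p = 0.160) in TA, where all KO arrays were below all WT arrays. Casq2 had 0.07 (SE 0.48, adjusted p = 0.9997) and -0.12 (SE 0.48, adjusted p = 0.952), smaller than the spread within groups.

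The release channel and its voltage sensor had lower means in KO. Cacna1s was at log2 9.72 ± 0.29 in KO against 10.73 ± 0.56 in WT soleus (SD, n = 3), without overlap (-1.01, SE 0.31, adjusted p = 0.388). In TA it was at 10.38 ± 0.45 against 11.12 ± 0.26, and KO TA 1 overlapped the WT arrays (-0.74, SE 0.31, adjusted p = 0.284). Ryr1 differed on its brightest probe set by -0.75 (SE 0.36, adjusted p = 0.674) in soleus and -0.56 (SE 0.36, adjusted p = 0.517) in TA, with overlap in both. Its second probe set, 1457347_at, read 9.61, 10.57 and 9.40 in KO soleus and 11.04, 10.74 and 11.06 in WT soleus. In TA it read 10.84, 10.49 and 9.63 in KO and 11.63, 11.89 and 10.84 in WT. All KO arrays were below all WT arrays of their muscle, though KO TA 1 and WT TA 3 both round to 10.84, and the log2 differences were -1.09 (SE 0.39, adjusted p = 0.493) and -1.14 (SE 0.39, adjusted p = 0.191). The 2 Ryr1 probe sets ranked the arrays of a group differently: the array numbered 3 was highest in all 4 groups on the first and lowest in 3 of 4 on the second.

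Pvalb differed by -0.62 (SE 0.94, adjusted p = 0.9997) in soleus, a value that turned to 0.76 without KO soleus 3, and by -0.21 (SE 0.94, adjusted p = 0.962) in TA. Stim1 differed by -0.22 (SE 0.11, adjusted p = 0.693) in soleus and -0.15 (SE 0.11, adjusted p = 0.574) in TA on 1436945_x_at. Its second probe set, 1448320_at, read between 7.91 and 9.11 and differed by -0.20 (SE 0.32) and -0.04 (SE 0.32). KO and WT arrays of Pvalb and Stim1 overlapped in both muscles.

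Whether the knockout difference itself differed between TA and soleus was tested in the same model. None of the 19 probe sets passed and 2 had an unadjusted p under 0.05, where 0.0353% of all (8 of 22648) passed and 1193 had such an unadjusted p. Those 8 were 4 higher and 4 lower, against 0 and 2 in the table as deposited and 4 and 1 with median centring. Both of the 2 were of Atp2a2, at 0.98 (SE 0.33, adjusted p = 0.797) on the brightest probe set and 0.86 (SE 0.25, adjusted p = 0.665) on 1452363_a_at, TA minus soleus. The standard error of such a difference was 0.33 for Atp2a2 and 1.40 for Sln.

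A wider list of 61 genes of calcium handling, which leaves out the 10 genes, had 49 with a tested probe set. Each was read on its brightest tested probe set, whereas the shares beside the counts are over all 22648 probe sets. In KO against WT soleus 0 of 49 passed the limma test and 5 had an unadjusted p under 0.05, where 0.0221% of all probe sets passed and 1757 of 22648 had such an unadjusted p, with a median log2 difference of -0.05 against 0.00 over all probe sets. The 2 of largest difference were Rrad, a small GTPase that inhibits voltage-gated calcium channels (0.92, adjusted p = 0.934), and Slc8a3, a sodium-calcium exchanger (0.84, adjusted p = 0.616). In TA 3 of 49 passed, 2 higher and 1 lower in KO, where 2.02% of all probe sets passed, with a median of -0.17 against 0.00. There 13 of 49 had an unadjusted p under 0.05, where 3455 of 22648 had one. The 2 that rose were Hspa5 (BiP, a chaperone of the endoplasmic reticulum) by 1.69 (SE 0.33, adjusted p = 0.0350) and Calr (calreticulin, a calcium-binding chaperone there) by 1.49 (SE 0.24, adjusted p = 0.0176). Both are lumen chaperones and not parts of the contraction machinery. The gene that fell was Mrln (myoregulin, a small inhibitor of SERCA related in function to Sln and Pln), by 1.31 log2 units (SE 0.27, adjusted p = 0.0398). The Mrln call was lost in 14 of 23 alternatives: without any 1 of 10 of the 12 arrays (all but KO soleus 3 and KO TA 1), without the arrays numbered 3, with no filter, with median centring and with only the 2 groups compared, its adjusted p reaching 0.131. The Hspa5 call was lost in 9 of 23 and the Calr call in 2. With the replicate number as a block 7 passed, which added Canx at 0.92, Stim2 at -0.88, Cav3 at -0.65 and Jph1 at -0.52. The count was 0 without KO TA 2 and 1 without any 1 of KO soleus 2, KO TA 3 and the 3 WT TA arrays. In a fit with 1 probe set per gene it was 2 higher and 2 lower, where 368 of 13009 genes passed. For the difference of the KO effects between muscles 0 of 49 passed and 4 had an unadjusted p under 0.05, where 0.0353% of all probe sets passed and 1193 had such an unadjusted p, with the largest values for Rcan1 (-1.19, adjusted p = 0.939) and Calr (1.17, adjusted p = 0.659).

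Between muscles most genes of the wider list that passed were lower in soleus. In WT mice 16 of 49 passed, 3 higher and 13 lower in soleus, where 7.7% of all probe sets passed, 3.3% higher and 4.4% lower, with a median of -0.34 against -0.02 over all probe sets. In a fit with 1 probe set per gene 1392 of 13009 genes passed, and of the wider list 3 higher and 14 lower. Rrad was higher in soleus by 4.36 log2 units (SE 0.81, adjusted p = 0.0112), with 2 of 3 WT TA arrays under the background mark, and by 3.82 with those set to the mark. Lower in soleus were Camk2a, a calmodulin-dependent kinase (-2.71, adjusted p = 0.0202), Slc8a3 (-2.06, adjusted p = 0.00795) and Cacng1, the gamma subunit of the skeletal dihydropyridine receptor (-1.998, adjusted p = 0.00262). In KO mice 14 of 49 passed, 3 higher and 11 lower, where 6.6% of all passed, 3.11% higher and 3.49% lower, with a median of -0.30 against -0.02. With 1 probe set per gene 1165 of 13009 genes passed there, and of the wider list 4 higher and 11 lower. In KO mice Rrad (4.68, or 4.44 with 1 KO TA array set to the mark) and Rcan1, a calcineurin regulator (2.90, adjusted p = 0.00174), were higher and Camk2a (-2.46) and Cacng1 (-2.19) lower. The Camk2a call was lost in 9 of 23 alternatives in KO, with a limma adjusted p of up to 0.122, and in 5 of 23 in WT. The Cacng1 call was kept in all 23 in both genotypes. Cacng1 is a partner of Cacna1s in the same receptor, and the contrast between their values (-1.998 and -0.39 in WT) was not tested. With the replicate number as a block 21 passed in WT, 4 higher and 17 lower, which added Tmem38b at 0.845, Dhrs7c at -0.96, Sypl2 at -0.89, Ank1 at -0.70 and Ppp3r1 at -0.62. In KO 20 passed with it, 5 higher and 15 lower, which added Tmem38b at 0.96, Cav3 at 0.47, Jph2 at -1.04, Ank1 at -0.98, Stim2 at -0.66 and Ppp3r1 at -0.63. The counts were 9 without WT soleus 1 and 10 without WT TA 2 in WT, and 6 to 8 without KO soleus 1, KO soleus 2, KO TA 1 or KO TA 2 in KO.

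**Figure D5:**
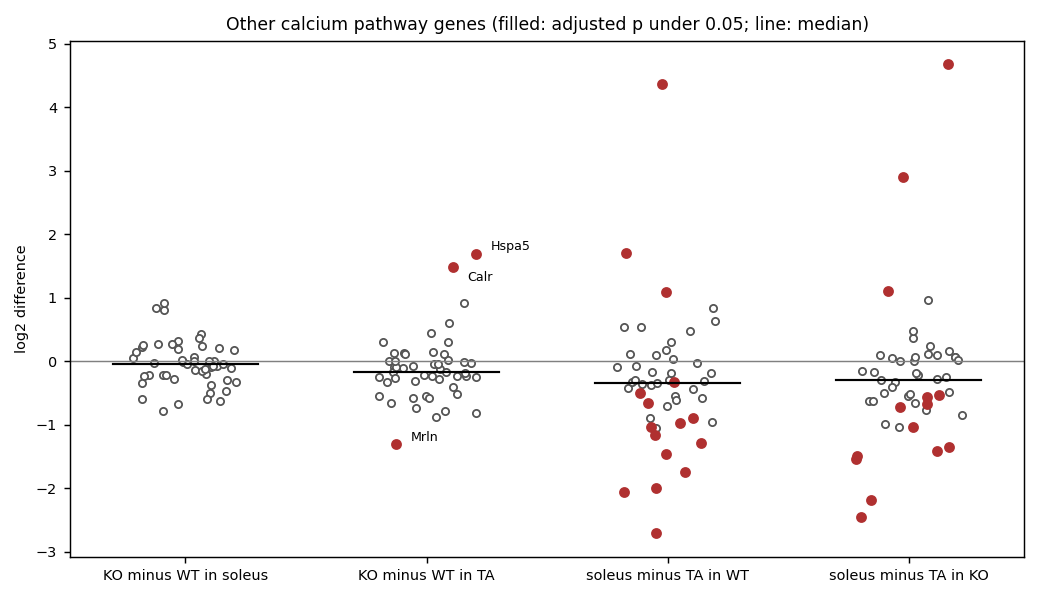
Log2 difference (vertical axis) of the 49 measured genes of the wider calcium list in 4 comparisons; each point is a gene, filled points passed at an adjusted p under 0.05 and black lines are medians. In TA, KO minus WT, the named genes Hspa5 and Calr lie above 1 and Mrln below -1, and between muscles most filled points lie below 0.

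Across the 12 arrays, which form 4 groups and share their muscle difference, the 10 genes fell into patterns that are given as descriptions. Atp2a2 ran with Sln (Pearson r = 0.95) and Casq2 (0.91) and against Casq1 (-0.85), Pvalb (-0.84) and Atp2a1 (-0.82). Ryr1 ran with Cacna1s (0.82). Pln ran against Casq1 (-0.79), Atp2a1 (-0.77) and Cacna1s (-0.73). Of 8554 other genes with a mean log2 above 5, the gene most like Atp2a2 was Tnnc1, slow troponin C (r = 0.998), and the one most like Pvalb was Actn3, the fast-fibre alpha-actinin (0.969). For Atp2a1 it was Myoz1 (0.985), for Sln Pde8a (0.981), for Casq1 Psmb7 (0.977) and for Casq2 Msl3 (0.985). For Ryr1 it was Adcy9 (0.982), for Cacna1s Tst (0.946), for Pln Xpot (0.955) and for Stim1 Abl2 (0.846). Stim1, whose brightest probe set hardly varied, had the lowest such value.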

How the data were processed

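The deposited table holds log2 signals for 45101 probe sets on 12 arrays; MAS5 is named in the submitters' processing notes without version or role, and how probes were summarised is not stated in any source used here. Values ran from 0.889 to 16.36 with 0 missing, and 0 columns were unmapped. The largest ratio between arrays of 2% trimmed means (unlogged) was 1.11, over a limit of 1.1, so arrays were quantile normalized. In the platform's probe annotation 34945 probe sets had 1 symbol, 932 had several, 9160 had none, and 64 were control probes. Probe sets with 1 symbol and a signal above the 40th percentile (log2 2.76) on at least 3 arrays were tested: 22648 probe sets of 13009 genes. Group means were fitted over all 12 arrays with limma 3.58.1 in R 4.3.3 (lmFit, eBayes with a variance trend), 2-sided, with Benjamini-Hochberg adjustment over all 22648 and a threshold of 0.05. The median standard error was 0.185 between groups and 0.261 for the difference of effects. An exact test of 3 arrays against 3 cannot go below p = 0.1. The number of arrays limits the precision.

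Tested on simulated data for KO against WT in TA over 22648 probe sets, the model recovered 55 of 100 probe sets changed by 1 log2 unit and 87 of 100 changed by 2, with 8 false among 150 calls. The simulated noise was independent between arrays, without the shared deviations of arrays with equal numbers given next. These rates therefore hold for the simulated data and may differ for the real arrays. The main fit had no replicate block. An alternative fit took equal replicate numbers as a block, a pairing read from the data and not the labels. Deviations from group means correlated at 0.379, 0.100 and 0.668 (numbers 1, 2 and 3) for KO and WT soleus and 0.339, 0.316 and 0.632 for KO and WT TA. They correlated at 0.448, 0.548 and 0.663 for the KO muscles and 0.404, 0.156 and 0.614 for the WT muscles. KO soleus and WT TA, which cannot share a mouse, gave 0.261, 0.414 and 0.579, and unequal numbers reached 0.448. Values with that block stand beside results it changes.

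All 10 genes are named on their brightest probe set (highest mean) and their other probe sets. Of the wider list, up to 4 genes past the test per comparison are named by size, or the 2 largest where none passed, and the most alike gene is the one of highest Pearson r. Genes and lists were chosen with earlier results of these data known. Normalization, offset, filters, probe set choice, variance model, array weights, the replicate block, single arrays, arrays numbered 3 and the groups fitted were varied. Figures and sequences used Python 3.11.15, pandas 2.3.3 and matplotlib 3.10.9.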

Additional observations from a re-analysis of the deposited data

How the results depend on the processing

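Of 1140 values of the 10 genes over 50 results and 23 alternatives, 1067 kept direction and side of the threshold, 34 lost and 16 gained a call, and 23 reversed, all where arrays were left out and none for a difference past the test. Counts of the 19 probe sets past the limma test moved as follows. For KO against WT in TA the count of 0 was 1 with median centring, 2 with a filter on a mean log2 above 5 and 1 with the replicate block, and in soleus it was 1 with array weights. With 1 probe set per gene the counts were 5 of 10 genes between WT muscles and 6 between KO muscles, by construction over fewer probe sets. The wider list's count of 3 in TA was 1 without a filter, 7 with the replicate block and 0 with only the 2 groups compared, a fit on fewer arrays. That fit gave 9 between WT and 5 between KO muscles, and no filter gave 9 between KO muscles. Over settings without single arrays or the arrays numbered 3, the counts of probe sets ran from 0 to 1 in KO against WT in each muscle, and those of the wider list from 0 to 4 in TA, 9 to 18 between WT and 6 to 14 between KO muscles.

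Over the same settings the reversed log2 differences ran, for KO against WT in soleus, from -0.14 to 0.23 (Casq2) and from -1.47 to 0.76 (Pvalb), and in TA from -0.11 to 2.17 (Sln) and from -0.62 to 0.19 (Casq2). For the difference of effects they ran from -0.69 to 0.13 (Casq2), -0.10 to 0.47 (Ryr1), -0.97 to 1.26 (Pvalb) and -0.015 to 0.15 (Stim1), and between WT muscles from -0.44 to 0.12 (Ryr1). The cause was not tested.

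Over all probe sets the replicate block moved the calls from 458 to 1231 in TA, from 1745 to 3296 between WT and from 1494 to 2989 between KO muscles. Over all alternatives they ran from 0 to 176 in soleus (5; 176 with array weights), 3 to 1231 in TA, 0 to 23 for the difference of effects (8), 748 to 3948 between WT and 673 to 2989 between KO muscles. Beside the values given in the text, the pairing changed no other call of the 10 genes. The fit on only the groups compared could not give the difference of effects. Signals at background limit Sln and Pln in TA.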
